A study of Mus musculus with 9 samples.

Results

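The genes *Igfbp4*, *Il17rb*, *Chdh*, *Emb* and *Nrgn* were chosen because their RNA fell steeply between WT stage 2 and WT stage 3 invariant natural killer T (iNKT) cells, and they were then followed through all 9 libraries. They are 5 of the 21883 genes in the deposited table, all of them were measured, and the choice set no numerical threshold. RNA was sequenced from iNKT cells sorted from the thymus of C57BL/6 mice, with 3 libraries for each of 3 groups. WT stage 2 and WT stage 3 cells came from wild type mice of 6 weeks. The third group was *Med23*-deficient stage 2 cells, from mice in which a floxed *Med23* gene, which encodes a subunit of the mediator complex, is deleted by a Cre driven by the CD4 promoter. The deletion therefore begins in CD4+CD8+ thymocytes, before iNKT cells arise, and affects the other cells that use this promoter as well. The age of these mice is not given in their labels. The labels also do not say whether the *Med23*-deficient and WT libraries were prepared together. A difference in preparation cannot be told apart from the deletion. Stage 2 cells are CD44 high and NK1.1 low, stage 3 cells are CD44 high and NK1.1 high, and both were sorted as cells binding the CD1d tetramer. The study's methods describe the sequencing data as standing for 3 independent experiments. The labels do not say whether the 3 libraries of a group came from separate animals. The p-values therefore measure the spread between libraries, which may be technical.

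Levels are given in FPKM, fragments per length of transcript and per depth of library, a scale on which genes can be set side by side. No read counts were used here and the depth of each library is unknown. Between 15584 and 17333 genes lay above 0 FPKM per library, and the short gene model *Gm23935* took 62.2% to 71.9% of the summed FPKM. *Med23* itself had 5.51, 5.15 and 6.74 FPKM in the WT stage 2 libraries, 7.14, 4.44 and 6.12 in those of WT stage 3, and 4.80, 3.60 and 3.92 in the *Med23*-deficient ones. The last group lay below WT stage 2 without overlap, but the log2 difference of -0.41 did not pass the test (standard error 0.18, limma adjusted p = 0.552), and a value that pools all exons does not show whether the deleted part was transcribed. All 8 iNKT identity markers (*Zbtb16*, *Cd3e*, *Trac* and others) reached a mean of 1 FPKM in every group. The summed FPKM of the B cell markers stayed between 0 and 0.5, with 2 of its 5 genes in the table. That of the 6 myeloid entries lay between 0.1 and 2.33. They include *Itgam* under both of its identifiers, and the listed *C1qa* was not in the table. The sum of the erythroid markers, with 1 of 5 in the table, lay between 0 and 0.75.

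The members belong to unrelated pathways. IL-17RB, the product of *Il17rb*, pairs with IL-17RA to form the receptor for IL-25, a cytokine that drives type 2 responses, and its presence marks iNKT cells that respond to IL-25. *Chdh* encodes choline dehydrogenase, the mitochondrial enzyme that starts the oxidation of choline to betaine. *Nrgn* encodes neurogranin, a small calmodulin-binding substrate of protein kinase C that is best known from neurons. *Emb* encodes embigin, a membrane glycoprotein of the immunoglobulin superfamily that chaperones monocarboxylate transporters to the cell surface. *Igfbp4* encodes a secreted protein that binds insulin-like growth factors and limits their access to receptors.

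*Il17rb* (ENSMUSG00000015966, chromosome 14, 29996141 to 30008896, minus strand, mm10) and *Chdh* (ENSMUSG00000015970, chromosome 14, 30009023 to 30040466, plus strand) lie head to head, with 126 bases between their annotated starts. *Nrgn* (ENSMUSG00000053310) lies on the minus strand of chromosome 9, 37544492 to 37552904. *Emb* (ENSMUSG00000021728) lies on the plus strand of chromosome 13, 117220625 to 117274098, and *Igfbp4* (ENSMUSG00000017493) on the plus strand of chromosome 11, 99041244 to 99054392. Promoter windows of 300 bases, 250 before and 50 from the RefSeq start on (GRCm38.p6, the assembly behind mm10), were matched for all 5 genes. For *Chdh*, *Nrgn* and *Emb* the RefSeq start differs from the annotated start given above. Positions of matches count from the RefSeq start. The windows of *Il17rb* and *Chdh* share 203 bases, so the *Chdh* window is shown for the pair. Those of *Nrgn* and *Igfbp4* are shown because these genes differed most between *Med23*-deficient and WT stage 2 cells. Each is written 5′ to 3′ on the strand of its gene. Capitals mark matches on either strand to the AP-1 letters TGANTCA and to the GC box GGGCGG.
Chdh, chr14:30008750-30009049: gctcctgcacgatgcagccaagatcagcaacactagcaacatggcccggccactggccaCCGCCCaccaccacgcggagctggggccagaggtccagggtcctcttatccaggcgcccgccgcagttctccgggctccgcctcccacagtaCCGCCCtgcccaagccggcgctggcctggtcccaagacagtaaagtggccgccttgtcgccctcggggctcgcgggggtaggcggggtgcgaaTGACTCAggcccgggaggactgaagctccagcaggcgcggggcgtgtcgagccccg
Nrgn, chr9:37552696-37552995: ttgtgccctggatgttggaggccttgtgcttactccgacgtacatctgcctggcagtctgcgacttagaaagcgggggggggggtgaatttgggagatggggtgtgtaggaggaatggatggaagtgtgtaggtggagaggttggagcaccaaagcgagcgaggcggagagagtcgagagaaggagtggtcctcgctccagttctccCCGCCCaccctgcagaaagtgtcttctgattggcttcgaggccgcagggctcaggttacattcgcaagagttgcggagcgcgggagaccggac
Igfbp4, chr11:99040994-99041293: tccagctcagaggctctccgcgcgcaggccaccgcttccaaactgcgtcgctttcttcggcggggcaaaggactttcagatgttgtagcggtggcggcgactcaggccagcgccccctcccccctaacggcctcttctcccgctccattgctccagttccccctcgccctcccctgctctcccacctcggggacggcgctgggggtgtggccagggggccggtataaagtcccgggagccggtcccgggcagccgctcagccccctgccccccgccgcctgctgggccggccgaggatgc
A single AP-1 match, TGACTCA at chromosome 14, 30008994 to 30009000, lay in the stretch common to *Chdh* and *Il17rb*, with its first base at -6 from the *Chdh* start and at -104 from that of *Il17rb*. Such letters were in 7.81% of the 32851 promoter windows searched. GC boxes, present in 35.7% of windows, were found in those of *Chdh* (2), *Il17rb* (1), *Nrgn* (1) and *Emb* (1). The *Emb* window also held CTTTGA, the TCF/LEF letters, on its other strand at -155 (16% of windows). None of the 5 windows held GATA letters (TGATAA or AGATAA, 18.6% of windows), T-box letters (GGTGTGA, 3.98%), Runx letters (TGTGGTT, 5.27%) or the E-boxes CACGTG and CAGCTG (22.2%), and the *Igfbp4* window held none of the letters named here. A match is a string of letters in a window and says nothing of binding. The windows of *Il17rb*, *Igfbp4* and *Chdh* were rich in G and C (72.0%, 71.3% and 70.3%), and those of *Nrgn* and *Emb* less so (59.3% and 57.7%).

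In WT stage 2 cells all 5 genes were well above the middle of the range. *Chdh* was listed at 60.45, 43.53 and 54.25 FPKM and *Il17rb* at 49.60, 22.65 and 64.74 FPKM. The second *Il17rb* value, from replicate 2, was the lowest of its group by far, and the ranges of the pair overlapped. *Nrgn* followed at 20.77, 30.42 and 32.79 FPKM, *Igfbp4* at 15.50, 19.17 and 27.82 and *Emb* at 17.15, 11.27 and 20.23. In the order *Chdh*, *Il17rb*, *Nrgn*, *Igfbp4*, *Emb*, each gene overlapped with the next, and *Emb*, the lowest, still exceeded 89.0% of the genes in the table by its mean.

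In WT stage 3 cells little of this RNA was left. *Chdh* was listed at 2.83, 2.44 and 1.41 FPKM and *Il17rb* at 2.40, 2.54 and 1.5 FPKM, near the middle of all genes, with 57.5% and 57.0% of genes below their means. *Nrgn* was uneven, at 0.17, 2.69 and 1.17 FPKM. *Igfbp4* was listed at 0.35, 0.18 and 0 FPKM and *Emb* at 0, 0.22 and 0 FPKM, so these genes were at or next to 0 in every stage 3 library. The mean FPKM of stage 3 was 4.22% of that of stage 2 for *Chdh*, 4.70% for *Il17rb*, 4.80% for *Nrgn*, 0.848% for *Igfbp4* and 0.452% for *Emb*. As log2(FPKM + 1), a scale that understates changes of weakly expressed genes, the differences were -4.07, -3.78, -3.76, -4.19 and -3.97. This comparison chose the genes, so these values are a description with no test. Over all genes, 0.914% passed an adjusted p of 0.05 as lower in stage 3 and 10.4% were lower without overlap. In bulk libraries fewer cells of a type and less RNA per cell cannot be told apart.

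**Figure D1:**
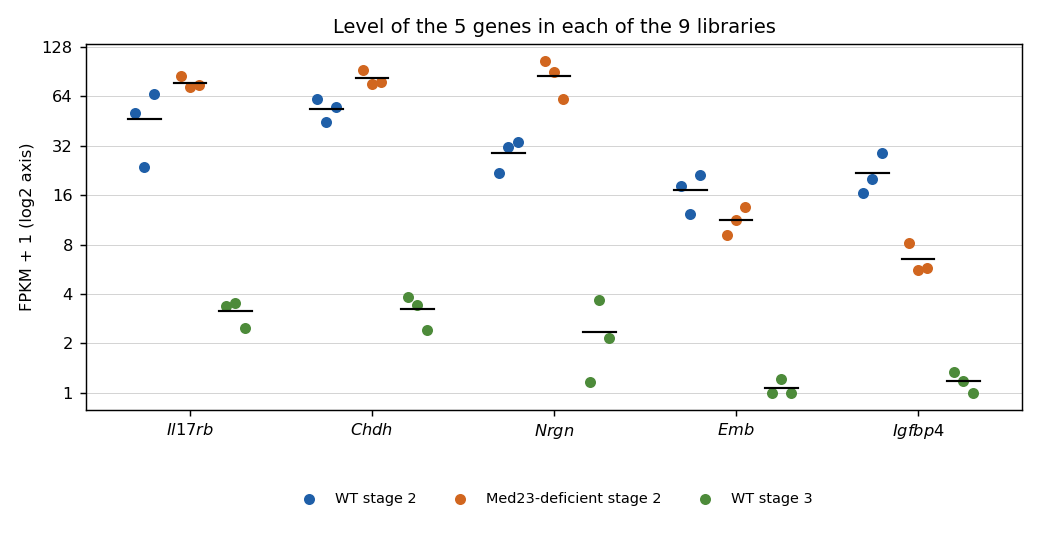
FPKM + 1 on a log2 axis for each of the 5 genes in the 9 libraries, with points for libraries and a black line at the mean FPKM + 1 of the 3 libraries of a group. *Med23*-deficient stage 2 cells (orange) sit above WT stage 2 (blue) for *Il17rb*, *Chdh* and *Nrgn*, overlap with it for *Emb* and sit below it for *Igfbp4*, and all lie above WT stage 3 (green).

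RNA of all 5 genes was present in *Med23*-deficient stage 2 cells, with mean levels from 3.01-fold that of WT stage 2 (*Nrgn*) to 26.4% of it (*Igfbp4*). *Nrgn*, *Chdh* and *Il17rb* were higher than in every WT stage 2 library, *Igfbp4* was lower than in every one, and *Emb* overlapped, where 5.63% and 8.37% of all genes were higher and lower without overlap. No member passed an adjusted p of 0.05 in limma, where 0.213% of the 20674 genes tested did, and 0 members passed in the Ballgown-style model, which is fitted to each gene on its own with the library size as covariate. An unadjusted p of 0.05 was passed by 3 of the 5, against 9.58% of all genes. That p together with a 2-fold change, the thresholds of the study, with the fold taken here on the log2(FPKM + 1) scale, was passed by *Nrgn* as higher, against 0.798% of all genes, and by *Igfbp4* as lower, against 1.32% (2.11% in either direction). The WT stage 2 libraries also took part in choosing the genes, so these tests are not fully independent of the choice, and with 3 libraries a side the smallest p of an exact permutation test is 0.1.

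*Nrgn*, the gene of the calmodulin-binding protein neurogranin, stood highest above WT stage 2. It was listed at 104.29, 88.41 and 60.17 FPKM in *Med23*-deficient libraries, the lowest of which was well above the highest WT stage 2 value. The mean of 84.3 ± 22.3 FPKM (SD, n = 3) against 28.0 ± 6.37 FPKM (SD, n = 3) was 3.01-fold higher. The log2 difference was 1.55 (95% interval 0.93 to 2.17, limma adjusted p = 0.103), the 65th largest increase among 20674 genes. *Nrgn* passed an adjusted p of 0.05 where genes with a mean FPKM under 1 were left out of the fit (limma adjusted p = 0.0303). It did not pass with a block for replicate number (limma adjusted p = 0.310) or with 1 library left out (limma adjusted p from 0.130 to 0.281). In the Ballgown-style model its adjusted p was 0.566.

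*Chdh* and *Il17rb*, the head-to-head pair, were moderately higher. *Chdh* was listed at 91.81, 75.20 and 77.17 FPKM, each above the 3 WT stage 2 values, and its mean was 1.54-fold higher (81.4 ± 9.07 against 52.7 ± 8.56 FPKM, SD, n = 3 each). The log2 difference of *Chdh* was 0.62 (95% interval 0.27 to 0.98, limma adjusted p = 0.218). *Il17rb*, the IL-25 receptor gene, was listed at 83.59, 72.08 and 73.64 FPKM. Its mean was 1.67-fold higher (76.4 ± 6.24 against 45.7 ± 21.3 FPKM, SD, n = 3 each), with a log2 difference of 0.85 whose 95% interval ran from -0.04 to 1.75 (limma adjusted p = 0.543). Without WT stage 2 replicate 2, the lowest *Il17rb* library, the log2 difference dropped to 0.42 (limma adjusted p = 0.496). The *Il17rb* groups did not overlap, but the interval includes 0.

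*Emb* and *Igfbp4* lay on the other side. *Emb*, the embigin gene, was listed at 8.10, 10.24 and 12.55 FPKM in *Med23*-deficient cells, and the highest of these exceeded the lowest WT stage 2 value. Its mean was 63.5% of that of WT stage 2, with a log2 difference of -0.59 (95% interval -1.20 to 0.02, limma adjusted p = 0.540). *Igfbp4*, which encodes the growth factor binding protein, was listed at 7.16, 4.62 and 4.73 FPKM, less than the lowest WT stage 2 value. Its mean of 5.5 ± 1.44 FPKM (SD, n = 3) was 26.4% of 20.8 ± 6.33 FPKM (SD, n = 3), and the log2 difference was -1.73 (95% interval -2.36 to -1.10, limma adjusted p = 0.0832). *Igfbp4* passed an adjusted p of 0.05 when all 9 libraries were fitted together (limma adjusted p = 0.0283) or genes with a mean FPKM under 1 were left out (limma adjusted p = 0.0213). It did not pass with a block for replicate number (limma adjusted p = 0.298) or with 1 library left out (limma adjusted p from 0.129 to 0.223). In the Ballgown-style model its adjusted p was 0.566.

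All 5 genes were far higher in *Med23*-deficient stage 2 cells than in WT stage 3 cells. Each passed an adjusted p of 0.05 (limma, adjusted p from 0.000606 for *Il17rb* to 0.0175 for *Igfbp4*), where 0.705% of the 20846 genes tested passed as higher, and each was higher without overlap, where 7.48% of all genes were. The log2 differences were 5.30 for *Nrgn* (95% interval 4.22 to 6.38), 4.70 for *Chdh* (4.21 to 5.18), 4.63 for *Il17rb* (4.24 to 5.03), 3.38 for *Emb* (2.79 to 3.98) and 2.46 for *Igfbp4* (1.81 to 3.10). *Nrgn*, *Chdh* and *Il17rb* had the 3 largest increases of all genes in this comparison, *Emb* was 11th and *Igfbp4* 34th. The WT stage 3 libraries took part in choosing the genes, so their low values there are part of the choice. The differences, calls and ranks in this comparison follow in part from that choice. In the Ballgown-style model 0 of the 5 passed (adjusted p from 0.0751 to 0.197). With a block for replicate number, *Il17rb* and *Chdh* passed, and *Emb*, *Nrgn* and *Igfbp4* did not (limma adjusted p = 0.0601, 0.0641 and 0.0986). *Igfbp4* lost its call without any 1 of the 3 WT stage 3 libraries or of *Med23*-deficient replicates 1 and 2 (limma adjusted p from 0.0501 to 0.0804), and with a pseudocount of 0.01 (limma adjusted p = 0.105).

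Set between the WT stages on the log2(FPKM + 1) scale, with WT stage 3 at 0% and WT stage 2 at 100%, the *Med23*-deficient libraries placed *Nrgn* at 141% on average (129% to 150% over the 3 libraries). *Il17rb* lay at 122% (120% to 126%) and *Chdh* at 115% (113% to 120%). *Emb* lay at 85.1% (77.8% to 92.2%) and *Igfbp4* at 58.7% (54.2% to 67.0%). The ranges hold both WT means fixed, so they leave out the spread of the WT libraries. For *Il17rb* the WT stage 2 libraries alone ran from 22.65 to 64.74 FPKM. Both WT groups also took part in choosing the genes. The placements depend on the pseudocount and were computed with a pseudocount of 1 only. With a pseudocount of 0.01, *Igfbp4* in *Med23*-deficient cells lay 5.94 above WT stage 3 on the log2 scale. Its difference between the WT stages, stage 3 minus stage 2, was then -7.84. For *Emb* these values were 8.48 and -9.11.

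**Figure D2:**
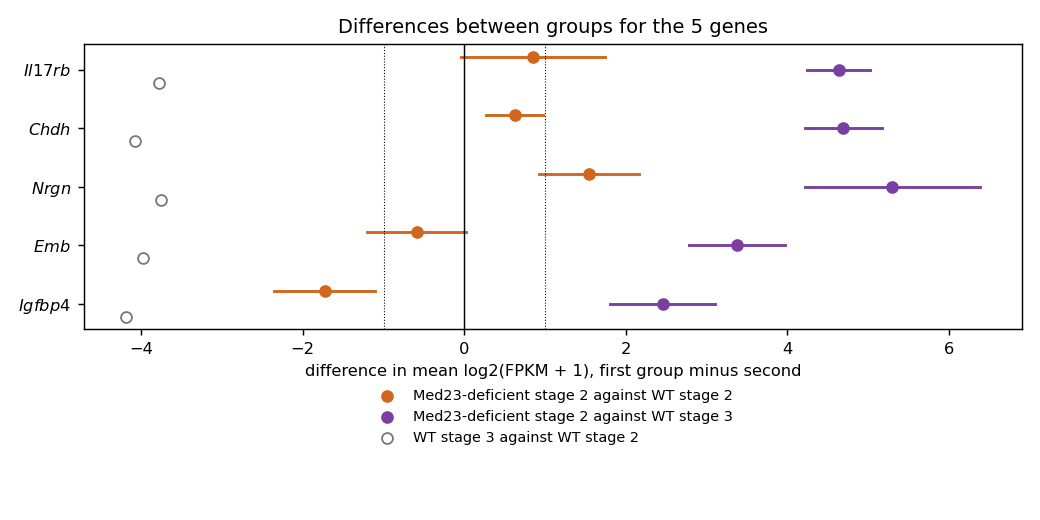
Difference in mean log2(FPKM + 1) for the 5 genes, with 95% limma intervals for the comparisons that involve *Med23*-deficient cells and open circles without intervals for the WT comparison that chose the genes. Dotted lines mark a 2-fold change. Against WT stage 2 the points run from 1.55 for *Nrgn* to -1.73 for *Igfbp4*, and against WT stage 3 all lie between 2.46 and 5.30.

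*Il17rb* and *Chdh* had the most similar profiles of any members. Centred on their own means over the 9 libraries, their log2(FPKM + 1) values differed by a root-mean-square of 0.31, against 0.61 to 1.53 for the other pairs of members. The ratio of *Il17rb* to *Chdh* FPKM was 0.911, 0.959 and 0.954 in the *Med23*-deficient libraries and 0.848, 1.04 and 1.06 in WT stage 3. In WT stage 2 it was 0.821, 0.520 and 1.19, so the pair parted most among the WT stage 2 libraries. Of 652 pairs of protein-coding genes in the table that lie head to head with starts within 1000 bases, 21 had at least 1 gene past the fold and p thresholds as lower in WT stage 3. In 3 of these both genes passed, namely *Il17rb* with *Chdh*, *Hmmr* with *Nudcd2* and *Hist1h2bq* with *Hist1h2ao*. The pair of *Il17rb* and *Chdh* is in that count by choice.

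Most genes near the members did not pass the fold and p thresholds. The fold was taken on the log2(FPKM + 1) scale, which understates changes of weakly expressed genes. Within 250 kb of a member lay 33 other gene models, of which 2 of 32 tested were lower in WT stage 3 past the fold and p thresholds, where 1.9% of all genes were. Likewise 2 of 33 were lower in *Med23*-deficient than in WT stage 2 cells, where 1.32% of all genes were, and 2 of 31 were higher in *Med23*-deficient than in WT stage 3 cells, where 1.39% of all genes were. *Selenok* and *Actr8*, downstream of *Il17rb*, differed by -0.05 and 0.31 on the log2 scale between the WT stages (limma adjusted p = 0.937 and 0.515). *Cacna1d*, a calcium channel gene on the far side of *Chdh*, had a low mean of 0.733 ± 0.312 FPKM in WT stage 2, 1.72 ± 0.442 in *Med23*-deficient cells and 0.00333 ± 0.00577 in WT stage 3 (SD, n = 3 each), the same order as *Chdh*. It was 1.43 higher in *Med23*-deficient than in WT stage 3 cells on the log2 scale (limma adjusted p = 0.0228). Between the WT stages its log2 difference of -0.77 missed the fold threshold (limma adjusted p = 0.0666). Its end overlaps the end of *Chdh* by 518 bases on the opposite strand, and the strand setting of the counting is not given in the sources used here, so reads of the overlap cannot be told apart.

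Near *Igfbp4*, the chemokine receptor gene *Ccr7*, whose start lies 113833 bases away, was lower in WT stage 3 by 3.27 on the log2 scale (9.68 ± 2.18 FPKM in stage 2 and 0, 0.11 and 0.17 FPKM in stage 3, limma adjusted p = 0.00843). In *Med23*-deficient cells *Ccr7* had 5.58 ± 2.23 FPKM (SD, n = 3), which overlapped with WT stage 2 and was higher than in WT stage 3 by 2.54 on the log2 scale (limma adjusted p = 0.0230). The nearest gene with substantial RNA, *Top2a*, which encodes a topoisomerase of dividing cells, had 7.95 ± 2.37 FPKM in WT stage 2, 1.37 ± 0.147 in *Med23*-deficient cells and 1.63 ± 1.21 in WT stage 3 (SD, n = 3 each). Its log2 difference from WT stage 2 was -1.88 in *Med23*-deficient cells and -1.83 in WT stage 3 (limma adjusted p = 0.0774 and 0.107). *Top2a* was thus at the WT stage 3 level in *Med23*-deficient cells, where *Igfbp4* was not. None of the 10 tested neighbours of *Nrgn* and none of the 3 of *Emb* passed the fold and p thresholds between the WT stages. *Gm17509*, which overlaps the start of *Emb* on the opposite strand, had a mean of 0.15 FPKM at most in any group. The pseudogene *Gm6421*, near *Emb*, was lower in *Med23*-deficient than in WT stage 2 cells by 1.04 on the log2 scale (limma adjusted p = 0.367).

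**Figure D3:**
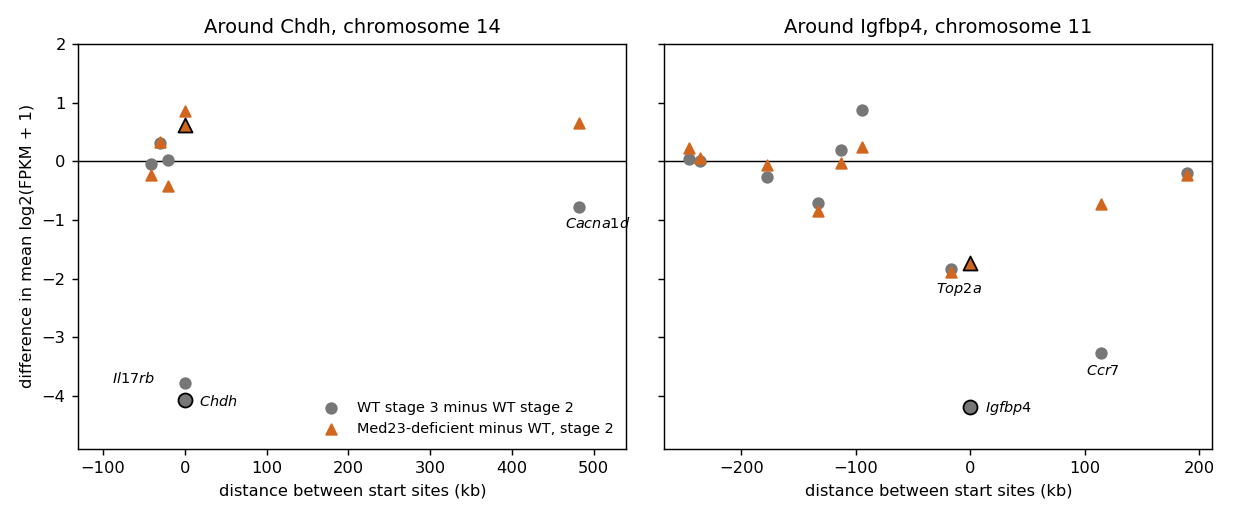
Difference in mean log2(FPKM + 1) against the distance between start sites in kb, in the direction of transcription of *Chdh* (left) and *Igfbp4* (right), for gene models within 250 kb that reached a mean of 1 FPKM in a group. Grey circles show WT stage 3 minus WT stage 2 and orange triangles *Med23*-deficient minus WT at stage 2, with the member outlined at 0. *Il17rb* coincides with *Chdh* near -4, while *Selenok* and *Actr8* lie near 0. The start of *Cacna1d*, whose end overlaps *Chdh*, lies at the far right of its panel. On the right *Ccr7* lies at -3.27 and *Top2a* at -1.83 in grey.

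Most other genes of the members' pathways did not pass the tests. Their lists were chosen with earlier results of these data known, so the counts are a description. Of 101 genes in 5 lists, 69 were in the table. Between the WT stages 3 of 65 tested were higher and 5 lower in stage 3 past the fold and p thresholds, where 1.7% and 1.9% of all genes were. An adjusted p of 0.05 was passed by 3 as higher and 1 as lower (limma), where 0.914% of all genes passed as lower. The share of all genes that passed as higher is not given here, so the count of 3 has no background beside it. In *Med23*-deficient against WT stage 2 cells 1 of 69 was higher and 1 lower, where 0.798% and 1.32% of all genes were, and 0 passed an adjusted p of 0.05 in limma. In *Med23*-deficient against WT stage 3 cells 3 of 67 were higher, where 1.39% of all genes were, and 0 lower, and 4 higher (0.705% of all genes) and 1 lower passed the adjusted p (limma). The shares of all genes that were lower in that comparison are not given here.

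In the IL-25 and IL-17 receptor list, 14 of 21 genes were in the table. Of 13 tested between the WT stages 3 were lower past the fold and p thresholds, and the list's median log2 difference was -0.16 against -0.01 for all genes. The type 2 cytokine gene *Il13* had 3.16, 10.39 and 6.06 FPKM in WT stage 2, 0, 0 and 0.09 in WT stage 3 (limma adjusted p = 0.0404), and 7.70, 7.65 and 6.19 in *Med23*-deficient cells. *Il4*, which encodes another type 2 cytokine, had 18.44, 25.56 and 15.40 FPKM in the WT stage 2 libraries, 3.46, 7.51 and 5.66 in those of WT stage 3, and 28.48, 26.52 and 27.31 in the *Med23*-deficient ones. As for *Il17rb*, every *Med23*-deficient value of *Il4* was above every WT stage 2 value, though that difference passed neither the fold threshold nor an adjusted p of 0.05 (limma adjusted p = 0.477). *Gata3*, the transcription factor of type 2 cells, differed little between the WT stages, with means of 38.8 ± 3.38 FPKM in stage 2 and 33.5 ± 2.13 in stage 3 (SD, n = 3 each, log2 difference -0.21, limma adjusted p = 0.449). In *Med23*-deficient cells *Gata3* had 69.2 ± 8.26 FPKM (SD, n = 3), above both without overlap, by 1.02 against WT stage 3 (limma adjusted p = 0.0175) and by 0.82 against WT stage 2 on the log2 scale (limma adjusted p = 0.0786). *Il17ra*, the partner of *Il17rb* in the IL-25 receptor, did not follow it. The levels of *Il17ra* were 7.63, 9.10 and 11.14 FPKM in WT stage 2, 9.96, 11.22 and 10.78 in WT stage 3, and 5.62, 6.65 and 7.47 in *Med23*-deficient cells, and no comparison of it passed an adjusted p of 0.05 (limma adjusted p from 0.140 to 0.667). *Il17re*, the receptor chain for IL-17C, had 1.76, 0.62 and 1.31 FPKM in WT stage 2, 0.12, 0 and 0 in *Med23*-deficient cells, and was listed at 0 throughout WT stage 3, so it was near 0 where *Il17rb* was highest. The limma adjusted p of *Il17re* was 0.182 between *Med23*-deficient and WT stage 2 cells, where its log2 difference was -1.07.

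In the insulin-like growth factor list, 9 of 18 genes were in the table. *Irs2*, an adaptor of the insulin and growth factor receptors, was higher in WT stage 3 by 1.16 on the log2 scale (13.6 against 5.52 FPKM on average, limma adjusted p = 0.0190), and *Igf1r*, the receptor gene, was lower, with 1.45, 2.15 and 1.35 FPKM in WT stage 2 but 0.18, 0.23 and 0.23 in WT stage 3 (log2 difference -1.11, limma adjusted p = 0.0558). *Igf1r* in *Med23*-deficient cells, at 0.75, 0.57 and 0.41 FPKM, lay between the WT stages without overlap, as *Igfbp4* did, but neither difference reached 2-fold on the log2(FPKM + 1) scale (-0.74 against WT stage 2 and 0.37 against WT stage 3), although the means of 1.65, 0.577 and 0.213 FPKM in WT stage 2, *Med23*-deficient and WT stage 3 cells did, and neither passed an adjusted p of 0.05 (limma adjusted p = 0.366 against WT stage 2 and 0.312 against WT stage 3). In the choline and betaine list, with 13 of 21 genes in the table, and in the list of monocarboxylate transporters and their chaperones, with 11 of 16, 0 genes passed the fold and p thresholds in any of the 3 comparisons. *Bsg*, which encodes basigin, a chaperone related to embigin, had 35.84, 45.76 and 38.57 FPKM in WT stage 2, 32.37, 44.06 and 34.70 in WT stage 3, and 33.91, 29.77 and 26.15 in *Med23*-deficient cells. *Slc16a7*, whose product embigin chaperones, was listed at 0 in all 6 WT libraries.

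In the calmodulin and protein kinase C list, with 22 of 25 genes in the table, *Prkce* and *Ppp3cc* were higher in WT stage 3 (log2 differences 1.25 and 1.77, limma adjusted p = 0.0472 and 0.0176) and *Camk4* was lower (-1.19, limma adjusted p = 0.0564). *Prkce*, a protein kinase C gene, had 2.12, 1.85 and 1.51 FPKM in WT stage 2, 6.51, 5.48 and 5.14 in WT stage 3, and 6.56, 6.61 and 5.0 in *Med23*-deficient cells. It was thus at its WT stage 3 level in the cells that had the most *Nrgn*, with a log2 difference from WT stage 2 of 1.32 (limma adjusted p = 0.0985).

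Outside these lists, the genes whose profiles over the 9 libraries were nearest to a member's were chosen by that pattern, so their values are a description. *Ccr4* was among the 3 nearest of *Il17rb*, *Chdh*, *Emb* and *Nrgn* (root-mean-square differences 0.66, 0.62, 0.49 and 0.84), and *Il6ra* among those of *Il17rb*, *Chdh* and *Emb* (0.61, 0.57 and 0.47). *Ccr4*, a chemokine receptor gene, had 30.0 ± 3.04 FPKM in WT stage 2, 30.6 ± 9.90 in *Med23*-deficient cells and 1.89 ± 1.18 in WT stage 3 (SD, n = 3 each), and *Il6ra*, an IL-6 receptor chain, had 12.0 ± 2.49, 12.9 ± 2.79 and 0.363 ± 0.212. The nearest of *Igfbp4* were *Smtn* (0.45), *Ccr7* (0.51) and the inhibitor gene *Id3* (0.59). *Smtn* had 7.21, 8.54 and 9.72 FPKM in WT stage 2 and 5.33, 3.71 and 3.26 in *Med23*-deficient cells, and was at 0 throughout WT stage 3. *Adh1* and *Itgb3* were nearest to *Nrgn* after *Ccr4* (0.89 and 0.92), with *Adh1* at 5.04 ± 0.620 FPKM in WT stage 2 and 13.5 ± 2.91 in *Med23*-deficient cells (SD, n = 3 each). *Ccr9* (0.65) completed the 3 of *Il17rb*, *Mapk11* (0.66) those of *Chdh* and *Ccr7* (0.51) those of *Emb*.

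**Figure D4:**
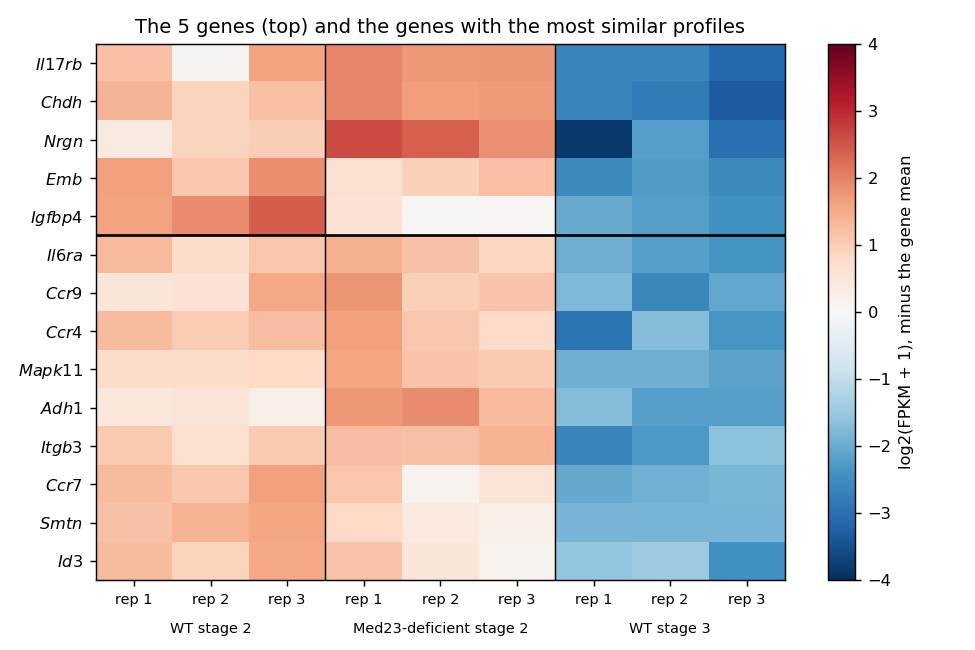
Heat map of log2(FPKM + 1) minus the mean of each gene over the 9 libraries, for the 5 members above the black line and the 9 genes among the 3 nearest profiles of a member below it, with columns for libraries by group. WT stage 3 is low throughout, and the *Med23*-deficient columns are strongest for *Nrgn*, *Chdh*, *Il17rb* and *Adh1* and pale for *Igfbp4*, *Smtn* and *Id3*.

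Markers of the functional iNKT subsets also differed between the groups, and their part in the members' values was not tested. The marker lists were chosen with earlier results of these data known, so their counts are a description. Of all genes, 1.7% were higher and 1.9% lower in WT stage 3 than in WT stage 2 past the fold and p thresholds. In *Med23*-deficient against WT stage 2 cells 1.32% were lower. Summed over the 8 NKT2 markers, FPKM ranged from 403 to 436 in WT stage 2, from 320 to 435 in *Med23*-deficient cells and from 122 to 166 in WT stage 3, with 6 of 8 lower in stage 3 past the fold and p thresholds. This list includes *Gata3*, *Il4*, *Il13* and *Ccr4*, described above. The 9 NKT1 markers summed to 206 to 278, 202 to 293 and 809 to 897 FPKM, and 9 of 9 were higher in stage 3. One of them is *Klrb1c*, the gene of the NK1.1 protein by which the stages were sorted. *Il2rb* made up much of the sums, with means of 121, 129 and 311 FPKM. *Klrb1c* and *Klrd1* were lower in *Med23*-deficient than in WT stage 2 cells past the fold and p thresholds, with means of 3.42 against 16.7 and 1.47 against 9.49 FPKM (limma adjusted p = 0.210 and 0.204). The 9 NKT17 markers in the table, of 10 listed, summed to 32.5 to 36.6 FPKM in WT stage 2, to 0.1 to 1.65 in *Med23*-deficient cells and to 1.09 to 2.90 in WT stage 3. Of the NKT17 markers, 7 of 9 were lower both in *Med23*-deficient and in WT stage 3 than in WT stage 2 cells, and *Blk*, *Il23r* and *Ccr6* were at 0 in all *Med23*-deficient libraries. These NKT17 markers were at or near 0 both where *Il17rb*, *Chdh* and *Nrgn* were highest and where all 5 members were lowest. *Emb* and *Igfbp4* had their highest means in WT stage 2, as the NKT17 markers did. The 5 naive T cell markers summed to 79.8 to 95.7 FPKM in WT stage 2, to 62.8 to 76.1 in *Med23*-deficient cells and to 45.9 to 62.8 in WT stage 3, and 4 of 5 were lower in stage 3, among them *Ccr7*. Its genes differed in pattern, since *Klf2* had means of 26.5, 19.1 and 34.9 FPKM in these groups, highest in WT stage 3, and *Lef1* had 35.9, 36.7 and 15.0. The 8 double-positive thymocyte markers summed to 52.6 to 55.9, 40.2 to 63.5 and 20.3 to 30.5 FPKM. These sums were mostly *Cd4*, with means of 50.9, 47.5 and 20.9 FPKM, and each of the other 7 had a mean of 1.41 FPKM at most in any group. Of these, *Rag2* was at 0 in all WT stage 2 libraries and *Ptcra* in all *Med23*-deficient ones. The 5 gamma delta T cell markers in the table, of 6 listed, summed to 296 to 325, 8.70 to 9.11 and 259 to 299 FPKM, while the delta chain gene *Trdc* was at 0.38 FPKM at most in any library.

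**Figure D5:**
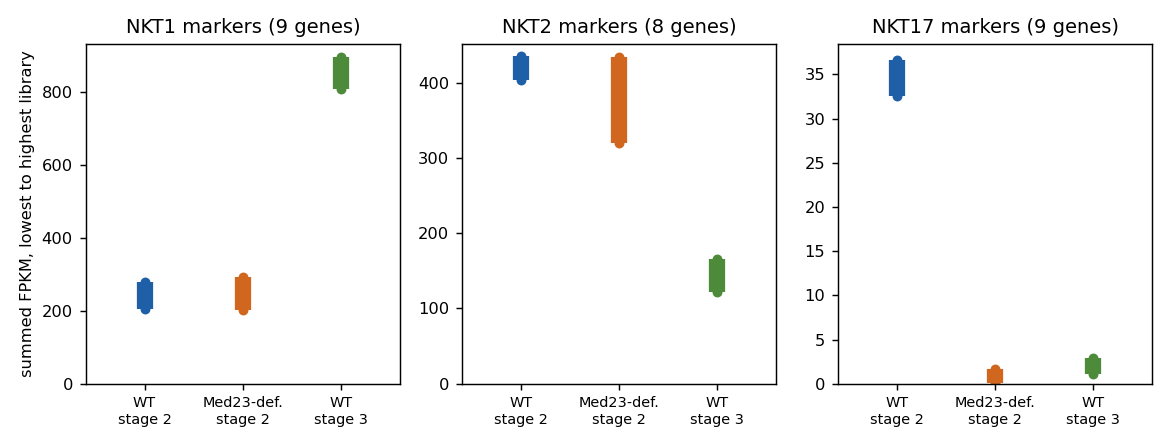
Summed FPKM of the NKT1, NKT2 and NKT17 marker genes in the table, with each bar running from the lowest to the highest of the 3 libraries of a group on axes that start at 0. NKT2 sums are high in both stage 2 groups and lower in WT stage 3, NKT1 sums are highest in WT stage 3, and NKT17 sums are near 0 outside WT stage 2.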

How the data were processed

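RNA of 9 thymic iNKT cell libraries was made into stranded total RNA libraries. According to the study's methods and the submitters' processing notes, the authors used Trimmomatic 0.36 for trimming, HISAT2 for alignment to mm10 and StringTie with the GENCODE vM12 genes for quantification, counting reads at no more than 2 loci. The authors deposited 1 table of FPKM, which pools the transcripts of a gene, with replicates kept apart and no counts, so no counting interval can be given. Here log2(FPKM + 1) was fitted with limma 3.58.1 in R 4.3.3 (eBayes with a mean-variance trend) for each of 3 comparisons, over the 6 libraries compared and the genes above 0 FPKM in at least 1, with Benjamini-Hochberg adjustment over all genes. Genes past the thresholds of the study, a 2-fold change with an unadjusted p of 0.05, were counted too. The fit was tested on simulated data. Over genes whose mean reached 1 FPKM, the median log2 difference was -0.05 for *Med23*-deficient against WT stage 2 (-0.15 on the TPM scale), 0.00 against WT stage 3 (-0.02) and -0.05 between the WT stages (-0.13). Named genes are the 5 members, the 3 nearest profiles of each, models within 250 kb and genes of the pathway and marker lists; further list genes (*Il17ra*, *Bsg*, *Slc16a7*) were named after their values were seen. Members and lists were chosen with earlier results of these data known. Figures were made with Python 3.11.15. The members' differences and the counts of called members and pathway genes were recomputed under alternatives. These were a smaller pseudocount (0.1, 0.01), no genes under a mean FPKM of 1, and rescaling (TPM, upper quartile or quantiles). Further ones were a Ballgown-style model, no limma trend, all 9 libraries in 1 fit, and a block for replicate number. Each library was also left out. The TPM scale without *Gm23935* was chosen after seeing the data.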

Additional observations from a re-analysis of the deposited data

How the results depend on the processing

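Every member kept its direction in all 3 comparisons under the alternatives run. The number of members past an adjusted p of 0.05 between *Med23*-deficient and WT stage 2 cells, 0 as reported, was 2 with a pseudocount of 0.01, 2 without genes under a mean FPKM of 1 and 1 with all 9 libraries, and 0 to 0 with 1 library left out. Against WT stage 3, 5 as reported, it was 0 in the Ballgown-style model, which leaves 3 residual degrees of freedom per gene and shares no spread across genes, and 4 to 5 with 1 library left out. A block for replicate number gave 2, *Il17rb* and *Chdh*. Same-numbered libraries deviated together with a correlation of 0.00429 to 0.272 over genes, below 0.1 for some in each comparison. Whether they share more than a number was not tested. Libraries correlated best with their own number in 2 of 6 cases between *Med23*-deficient and WT stage 2, 3 of 6 against WT stage 3 and 6 of 6 between the WT stages. The block changed no other call of a count. Of pathway genes past the fold and p thresholds, 2 as reported between *Med23*-deficient and WT stage 2 cells, there were 4 and 5 with pseudocounts of 0.1 and 0.01, 1 without genes under a mean FPKM of 1, 1 on the TPM scale, 4 on that scale without *Gm23935*, and 2 to 4 with 1 library left out (4 without *Med23*-deficient replicate 2). Against WT stage 3, 3 as reported, there were 6 and 5 with pseudocounts of 0.1 and 0.01 and 2 to 3 with 1 library left out. Between the WT stages, 8 as reported, there were 6 to 10 under all alternatives, and 7 to 8 with 1 library left out. The cause of these moves was not tested. A pseudocount of 0.01 moved the WT differences of *Emb* and *Igfbp4* to -9.11 and -7.84. The unknown depth limits what can be said of values near 0.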
